A study of Mus musculus with 6 samples.

Results

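Classic surface and niche markers of mesenchymal stem cells were followed across the mesenchymal stem cell (MSC) and transit amplifying cell (TAC) regions of the mouse incisor. The set was given as a list of 10 genes (Thy1, Nt5e, Vcam1, Alcam, Cd44, Ly6a, Cd34, Nes, Lepr and Mcam), and rows were taken by gene symbol. All 10 were found among the 23718 genes of the expression table, and all 10 passed the filter on low values that left 15391 genes for testing. The MSC samples were laser-captured regions of incisors from 1-month-old C57BL/6 mice of genotype Gli1-CreER;tdT. The TAC samples came from C57BL/6 mice of the same age and of genotype Axin2-CreER;tdT. Both groups carried a tamoxifen-inducible Cre, with tamoxifen given 1 day before collection, and a red fluorescent tdTomato reporter, so the groups differed in the driver as well as in the region. The strain is that of the labels, while the methods describe the study's mice as of mixed background and the reporter as a Rosa26 allele. There were 3 samples per group. The methods speak of 3 mice per group, but the labels do not tie a sample to an animal, so p-values measure only the spread between these samples.

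A captured region is marked by where the driver is active, and it holds every cell under the laser, vessels and nerves included. Mesenchymal stem cells have no single marker. They are recognised in culture and in marrow by combinations of surface proteins, such as the glycoprotein THY1 (CD90), the ecto-enzyme NT5E (CD73) and the adhesion molecules VCAM1, ALCAM and MCAM, and by the niche marks nestin and leptin receptor. Most of these proteins also occur on other cells. MCAM and CD34 are found in vessel walls, nestin in odontoblasts, pericytes and glia, and SCA-1, the product of Ly6a, on fibroblasts and endothelium. In the bulk RNA of a region, fewer cells of a type and less RNA per cell cannot be told apart.

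Values are the deposited normalized read numbers, which are comparable between libraries for 1 gene but not between genes of different length. Estimated reads ran from 20203159 to 108156380 per library. Replicate 3 of both groups stood apart from replicates 1 and 2. Mitochondrial ribosomal RNA made up 8.28% to 9.07% of reads in replicates 1 and 2 and 0.236% or less in replicate 3, and the share of genes without a read was 6.89% to 8.36% against 28.3% in TAC replicate 3 and 43.1% in MSC replicate 3. Each marker is therefore given in all 6 libraries, with its difference in replicates 1 and 2 and in replicate 3 beside the pooled one. For the labelled tissue, 9 dental mesenchyme transcription factors were looked up. All were listed and tested, and only Barx1 lacked reads in a library (MSC replicate 3). Libraries of this depth hold reads for most genes, so this is a weak check of the tissue. For the driver genes, the MSC and TAC means (each SD, n = 3) were 308 ± 98.9 and 230 ± 144 for Gli1, and 39.4 ± 24.3 and 51.6 ± 15.6 for Axin2, with groups that overlapped for both. Their difference depended on the replicates. On the log2 scale TAC minus MSC for Gli1 was -0.77 in replicates 1 and 2 and -0.09 in replicate 3. For Axin2 these values were 0.18 and 1.43.

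The markers did not move as a block. Vcam1, Lepr, Mcam and Ly6a were higher in every MSC library than in any TAC library, and Thy1 was higher in every TAC library than in any MSC library. The groups overlapped for Alcam, Cd34, Cd44, Nes and Nt5e. Groups that did not overlap were thus found for 5 of 10 markers, against 24.5% of all genes tested, with 4 toward MSC (12.2% of all genes) and 1 toward TAC (12.3%). In limma with Benjamini-Hochberg adjustment over all genes, 0 of 10 markers passed an adjusted p-value of 0.05, a threshold that 0.422% of all genes passed (0.383% toward MSC and 0.039% toward TAC). At an unadjusted p-value of 0.05 there were 5 markers, against 11.9% of all genes (6.43% toward MSC and 5.42% toward TAC), and these were the same 5 whose groups did not overlap. The median log2 fold change of the 10 markers (TAC minus MSC, so that a negative value is a higher level in MSC) was -0.83, against 0.03 over all genes tested. An absolute log2 fold change of at least 1 was seen for 5 markers (22.1% of all genes) and of at least 2 for 3 markers, Vcam1, Lepr and Ly6a (3.37% of all genes). In all 3 numbered pairs 5 markers were higher in MSC (26.4% of all genes) and 2, Thy1 and Nes, were higher in TAC (24.6%), so 7 of 10 kept 1 direction, against 51% of all genes.

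The methods mention sample pairs, but across genes the replicate numbers mainly set replicate 3 apart from the others. A fit with the replicate number as a block was read as well. It brought 2 markers past the adjusted threshold, Thy1 toward TAC (adjusted p 0.0442) and Mcam toward MSC (adjusted p 0.0456), where 1.49% of all genes passed (0.884% toward MSC and 0.604% toward TAC). Replicates 1 and 2 are not distinct pairs, and with these averaged within each group 0 of 10 markers passed, with 4 at an unadjusted p-value under 0.05 (610 of all 15391 genes in that fit) and adjusted p-values of 1.00 for both Thy1 and Mcam. With replicates 1 and 2 alone, 6 markers passed, against 44.2% of all genes, and the error of that fit is only what separates a pair of close libraries in each group.

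**Figure D1:**
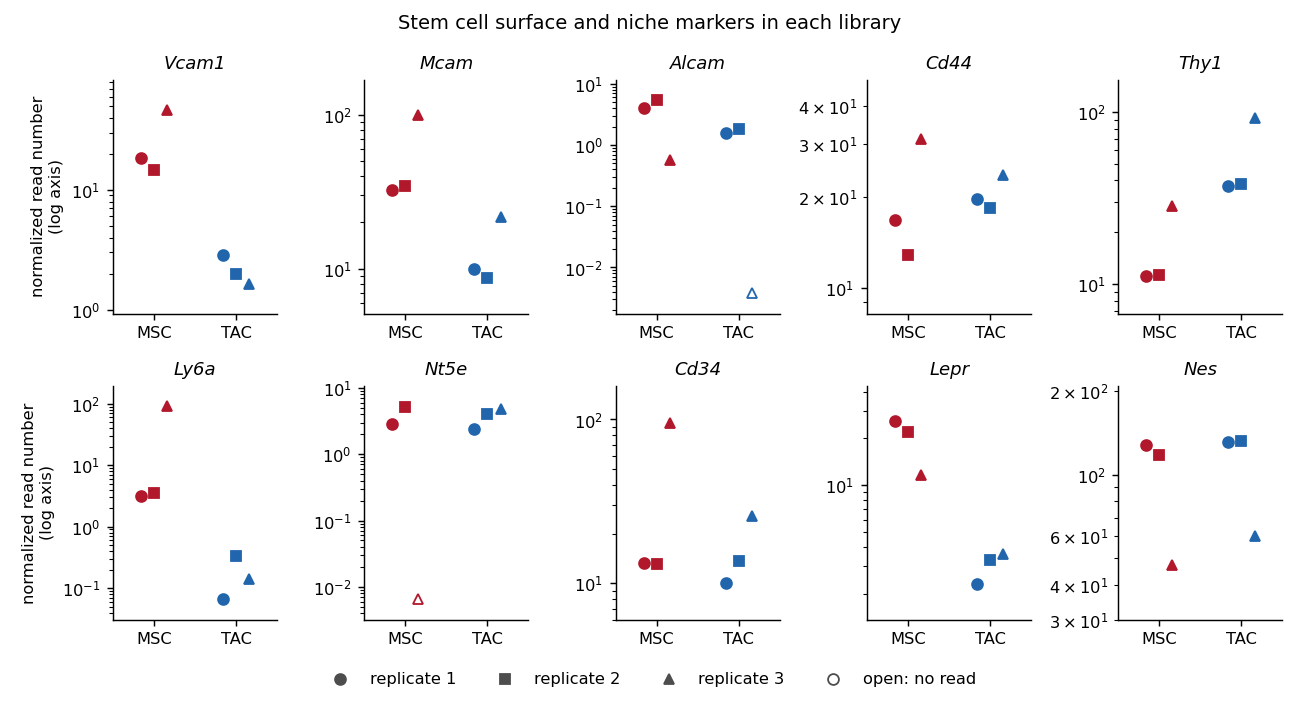
Each panel shows 1 marker in the 6 libraries, with the normalized read number on a log axis and MSC and TAC along the x axis, and the shape of a point gives the replicate number. The 3 MSC points lie above the 3 TAC points for Vcam1, Mcam, Ly6a and Lepr and below them for Thy1, and open points mark the libraries with no read for Nt5e and Alcam.

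Among the adhesion molecules, Vcam1 had the lowest p-value of the 10 markers. Vcam1 (chromosome 3, 116109949 to 116129688, minus strand, on mm10) encodes an immunoglobulin superfamily receptor that binds integrins on neighbouring cells and holds blood cells in the marrow niche. In the order of replicates 1, 2 and 3, used throughout, the MSC libraries held 18.4, 14.7 and 47.1 and the TAC libraries 2.85, 1.99 and 1.64. The lowest MSC library was thus well above the highest TAC library, and within MSC the third replicate was the highest. The means were 26.8 ± 17.7 (SD, n = 3) and 2.16 ± 0.622 (SD, n = 3), a ratio of 12.4. On the log2 scale TAC minus MSC was -2.97 (SE 0.55, 95% interval -4.25 to -1.70), with an adjusted p of 0.0913. The difference was -4.19 in replicate 3 and -2.37 in the other libraries. Without MSC replicate 3 it was -2.49 and passed (adjusted p 0.0421). Over all fits that left out 1 sample it ran from -3.29 to -2.49, with adjusted p-values up to 0.418. TAC counts were low but not at the floor, with 129, 82.0 and 431 estimated reads. With a pseudocount of 0.1 the log2 difference was -3.42, and with 10 it was -1.50.

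Mcam (chromosome 9, 44134469 to 44142727, plus strand) encodes CD146, an adhesion molecule of pericytes, smooth muscle and endothelium that also marks skeletal stem cells of human marrow. It was 32.5, 34.3 and 99.4 in MSC and 9.98, 8.68 and 21.8 in TAC. Replicate 3 was the highest in both groups, by a ratio of 2.98 to the mean of replicates 1 and 2 in MSC and of 2.34 in TAC, yet the lowest MSC value still exceeded the highest TAC value. Within each numbered pair the MSC level was 3.26, 3.95 and 4.56 times the TAC level. TAC minus MSC on the log2 scale was -1.87 (SE 0.54), and its adjusted p was 0.231. With the replicate block the same difference had an SE of 0.21. Replicates 1 and 2 gave -1.74, replicate 3 gave -2.14, and the test of that difference did not pass (adjusted p 0.107).

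Alcam (chromosome 16, 52248996 to 52454074, minus strand), which encodes CD166, a receptor that binds itself and CD6 on other cells, was among the 2 lowest markers. It was 3.97, 5.42 and 0.579 in MSC and 1.58, 1.798 and 0.00379 in TAC, and the last of these is the value of a gene with no read in TAC replicate 3. Each numbered pair had the lower value in TAC, but the groups overlapped because MSC replicate 3 lay below TAC replicates 1 and 2. TAC minus MSC on the log2 scale was -0.93 (SE 0.74, 95% interval -2.68 to 0.81) and did not pass (adjusted p 0.690). It ran from -1.55 without MSC replicate 3 to -0.46 without TAC replicate 3. Its value was -1.07 in replicates 1 and 2 (adjusted p 0.00774 in the fit of these libraries alone) and -0.65 in replicate 3. Of 10352 genes with at least 50 estimated reads in each of the other 5 libraries, 78 had no read in TAC replicate 3 (0.753%), and Alcam was among these.

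Cd44 (chromosome 2, 102811141 to 102901665, minus strand) encodes the main cell-surface receptor for hyaluronan. It was 16.7, 12.9 and 31.1 in MSC and 19.7, 18.4 and 23.7 in TAC, so the TAC values lay inside the MSC range. The means were nearly equal, at 20.2 ± 9.60 (SD, n = 3) and 20.6 ± 2.73 (SD, n = 3). The log2 fold change of 0.11 had a 95% interval from -0.81 to 1.03 (adjusted p 0.956). By library set it was -0.38 in replicate 3 and 0.35 in replicates 1 and 2. Differences below -0.81 or above 1.03 on the log2 scale therefore lay outside the interval, and those within it could not be told apart here.

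Products of the next 3 genes are held to the membrane by a lipid anchor, and their values differed in direction. Thy1 (chromosome 9, 44043384 to 44048579, plus strand) was the marker with the steadiest difference. It was 11.2, 11.2 and 28.3 in MSC and 37.3, 38.0 and 92.5 in TAC. The TAC level was 3.33, 3.38 and 3.27 times the MSC level in the 3 numbered pairs, while replicate 3 was 2.52 times the mean of replicates 1 and 2 in MSC and 2.46 times in TAC. The means were 16.9 ± 9.87 (SD, n = 3) and 55.9 ± 31.7 (SD, n = 3). Without the block this was 1.67 on the log2 scale (SE 0.51, adjusted p 0.259), and the block lowered the SE to 0.18. Replicates 1 and 2 gave 1.66 and replicate 3 gave 1.67. Thy1 was thus the 1 marker of the 10 that lay toward TAC in groups that did not overlap.

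Ly6a (chromosome 15, 74994877 to 74998031, minus strand) encodes SCA-1, a mouse stem cell antigen. It was 3.17, 3.48 and 90.9 in MSC and 0.0657, 0.336 and 0.140 in TAC, and the groups did not overlap. The TAC values rested on 2, 13 and 36.0 estimated reads, and MSC replicates 1 and 2 on 118 and 119. On the log2 scale the difference was -3.35 (SE 1.19, 95% interval -6.13 to -0.56, adjusted p 0.330). Its size depended on the pseudocount, at -5.30 with 0.1 and -1.36 with 10. The wide interval came with MSC replicate 3, which was 27.3 times the mean of MSC replicates 1 and 2, a ratio that 0.955% of genes tested exceeded. Without MSC replicate 3 the log2 fold change was -1.88 and passed (adjusted p 0.0490). Over all fits that left out 1 sample it ran from -4.11 to -1.88, with adjusted p-values up to 0.744. Replicates 1 and 2 gave -1.86, against -6.33 in replicate 3, and the interaction between library set and region had an adjusted p of 8.26e-05. Ly6a belongs to a family of neighbouring genes with closely similar copies, so its reads may be shared with them and its level is uncertain.

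Nt5e (chromosome 9, 88327197 to 88372092, plus strand) encodes CD73, which makes adenosine from AMP outside the cell. It was 2.85, 5.13 and 0.00666 in MSC and 2.39, 4.08 and 4.82 in TAC. MSC replicate 3 had no read for it, while TAC replicate 3 had 1270. Such a gap was common in that library. Of 11818 genes with at least 50 estimated reads in each of the other 5 libraries, 1281 had no read in MSC replicate 3 (10.8%). With that library the log2 difference was 0.69 (SE 0.76, adjusted p 0.790), and without it -0.066. In replicates 1 and 2 it was -0.23 and did not pass, and in replicate 3 it was 2.53.

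Cd34 (chromosome 1, 194938819 to 194961279, plus strand) encodes a sialomucin of blood progenitors, vessels and fibroblasts, which is often absent from cultured mesenchymal stem cells. It was 13.4, 13.1 and 95.5 in MSC and 10.1, 13.6 and 25.6 in TAC. Replicates 1 and 2 of both groups lay together, between 10.1 and 13.6, and replicate 3 was the highest in each group. A log2 difference of -0.73 (SE 0.79, adjusted p 0.783) became 0.19 without MSC replicate 3, while replicates 1 and 2 alone gave -0.16 and replicate 3 gave -1.86. MSC replicate 3 was 7.21 times the mean of MSC replicates 1 and 2, a ratio that 3.42% of genes tested exceeded. Ly6a and Cd34 were the 2 markers with the largest excess in that library.

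Lepr, the leptin receptor, marks stromal stem cells around the sinusoids of adult bone marrow. The gene lies on chromosome 4, 101717404 to 101815352, plus strand. Its value was 25.7, 22.02 and 11.6 in MSC and 2.30, 3.28 and 3.59 in TAC. The groups were clearly apart, and here MSC replicate 3 was the lowest of its group. The means were 19.8 ± 7.29 (SD, n = 3) and 3.06 ± 0.676 (SD, n = 3), a ratio of 6.47, on 104, 136 and 947 estimated reads in TAC. This came to -2.30 on the log2 scale (SE 0.47, 95% interval -3.40 to -1.20), with an adjusted p of 0.115. By library set the value was -2.72 in replicates 1 and 2 and -1.46 in replicate 3. Without MSC replicate 3 it was -2.62 and passed (adjusted p 0.0376). Over all fits that left out 1 sample it ran from -2.62 to -2.09, with adjusted p-values up to 0.511. The pseudocount moved it to -2.60 with 0.1 and to -1.16 with 10.

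Nes (chromosome 3, 87971078 to 87980451, plus strand) encodes nestin, an intermediate filament protein of neural progenitors, of perivascular stem cells in marrow and of odontoblasts. It was 128, 117 and 47.4 in MSC and 131, 132 and 60.0 in TAC. The groups overlapped throughout, and replicate 3 was the lowest in both, at 0.386 and 0.457 of the mean of replicates 1 and 2. TAC exceeded MSC by 0.18 on the log2 scale (SE 0.49, 95% interval -0.98 to 1.33, adjusted p 0.938), and with the replicate block its SE was 0.13 (adjusted p 0.476). Replicates 1 and 2 gave 0.10 and replicate 3 gave 0.33, while all libraries but MSC replicate 3 gave -0.27. Dspp, the dentin matrix gene of odontoblasts, was 4909, 4763 and 476 in the same MSC libraries and 4410, 4370 and 3095 in TAC, and whether odontoblast RNA set the level of Nes was not tested.

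**Figure D2:**
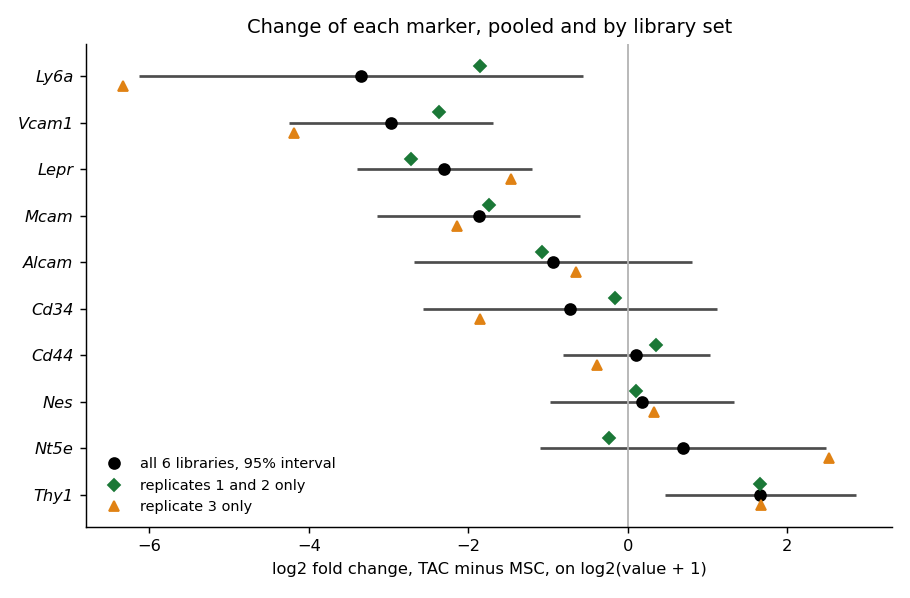
Black points give the log2 fold change of each marker (x axis, TAC minus MSC, on log2(value + 1)) over all 6 libraries, with 95% intervals from limma as lines. Green diamonds are replicates 1 and 2 and orange triangles replicate 3. For Thy1 the 3 values nearly coincide at 1.66 to 1.67, while for Ly6a they spread from -6.33 to -1.86 and for Nt5e and Cd44 the library sets lie on opposite sides of 0.

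The difference between the library sets was tested across all genes by an interaction term. It passed for 6 of 10 markers (Ly6a, Cd34, Nt5e, Vcam1, Lepr and Cd44) at an adjusted p-value of 0.05, against 57.2% of all genes tested. Thy1, Mcam, Alcam and Nes had adjusted p-values of 0.957, 0.107, 0.430 and 0.0931. The library sets went in opposite directions for 2 markers, Nt5e and Cd44, against 38.8% of all genes. The error of this test is the spread between replicates 1 and 2 alone.

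Levels of different markers were compared after division by the length of each gene's merged exons, from 1205 bases for Ly6a to 8870 for Vcam1. On this scale of normalized reads per kilobase, Nes had the highest median in both regions, at 18.3 in MSC and 20.4 in TAC. In MSC it was followed by Mcam (median 10.2), Thy1 (3.75), Lepr (3.12), Ly6a (2.89), Cd44 (2.47), Vcam1 (2.08), Cd34 (1.84), Alcam (0.558) and Nt5e (0.331). Of these neighbours, Mcam and Thy1, Thy1 and Lepr, and Cd34 and Alcam had ranges that did not overlap, and all other neighbours overlapped. In TAC the order after Nes was Thy1 (12.7), Mcam (2.98), Cd44 (2.90), Cd34 (1.87), Nt5e (0.474), Lepr (0.466), Vcam1 (0.224), Alcam (0.221) and Ly6a (0.117). The ranges of Thy1 and Mcam, of Cd34 and Nt5e, and of Lepr and Vcam1 did not overlap there. In MSC replicate 3 the highest marker was Ly6a, at 75.4 normalized reads per kilobase, and in TAC replicate 3 it was Thy1, at 30.9. Lepr was the 4th of 10 in MSC and the 7th in TAC.

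**Figure D3:**
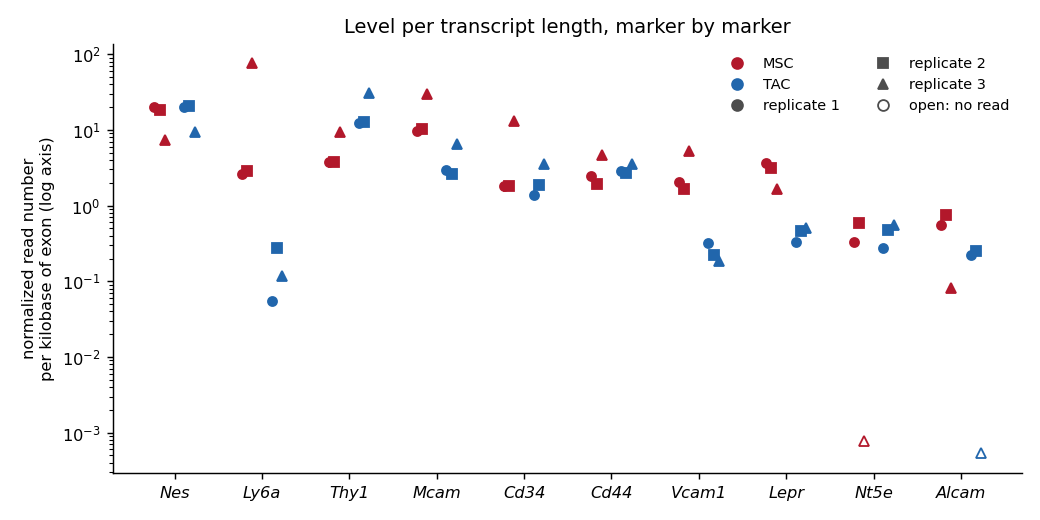
Normalized read number per kilobase of merged exon (y axis, log scale) is shown for each marker in the 3 MSC libraries (red) and the 3 TAC libraries (blue), with the replicate number as the shape and open points for no read. Nes was high in both groups, at 7.38 to 19.9 in MSC and 9.35 to 20.6 in TAC, and the widest gap between the groups was that of Ly6a, with all TAC values under 0.279.

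Sequences just before the gene start are shown for Lepr and Mcam, 2 of the 4 markers whose MSC libraries were all above the TAC libraries, since the RefSeq promoter table (GRCm38.p6) had an entry for these. The table held entries for 7 of the 10 markers. Each stretch runs to the last base before the first annotated base of the gene, at chr4:101717157-101717403 and chr9:44134408-44134468, both on the plus strand.

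Lepr: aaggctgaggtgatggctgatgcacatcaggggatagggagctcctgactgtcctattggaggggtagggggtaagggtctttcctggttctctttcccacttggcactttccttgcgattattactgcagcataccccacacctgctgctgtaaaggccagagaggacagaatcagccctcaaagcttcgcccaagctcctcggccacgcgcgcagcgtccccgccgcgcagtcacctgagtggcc

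Mcam: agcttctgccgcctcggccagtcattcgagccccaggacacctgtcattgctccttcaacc

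G and C made up 58.7% of the Lepr stretch and 60.7% of the shorter Mcam stretch. The full promoter windows were searched on both strands for GACCACCCA, the consensus of the GLI factors, for the palindromic EBF consensus, for ATCAAAG, that of the TCF/LEF factors, and for TATAAA, the TATA box. None of the 8 windows of the markers held any of these, so no base is in capitals. Over all 32851 windows in the table the shares that held them were 0.253%, 0.904%, 3.73% and 13.6%.

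Genes whose profile over the 6 libraries was most like that of a marker were taken by Pearson correlation of log2 values among 7844 other genes with a mean of at least 10, predicted genes and clone names left out. Nearest to Vcam1, the marker with the lowest p-value, were Cc2d1a, Atp1b2 and Fam107a, with correlations of 0.999, 0.998 and 0.997. Nearest to Nes, the marker with the highest mean, were Arid1a, Zc3h7b and Amot, with 0.999, 0.999 and 0.998. The 3 genes nearest to Nes also had their lowest values in replicate 3 of both groups. Libraries share a set and a depth, so these correlations over 6 points describe the table and no more.

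Of 14 other surface markers of mesenchymal stem cells, all tested, 2 (Eng and Cd200) had groups that did not overlap, both toward MSC, where 12.2% of all genes did so. In this list 0 passed the adjusted threshold in limma and 1 did so before adjustment, toward MSC (6.43% of all genes). This was Eng, which encodes endoglin (CD105), a coreceptor for TGF-beta on stem cells and endothelium. It was 56.6, 60.2 and 75.2 in MSC and 25.8, 24.1 and 34.9 in TAC, or -1.16 on the log2 scale (SE 0.28, adjusted p 0.167). Next by p-value were Cd200, at -0.99 (adjusted p 0.422), and Cd151, at -1.14 (adjusted p 0.595), which became -0.43 without MSC replicate 3 and -0.72 without TAC replicate 2. The median log2 fold change of the list was 0.11, near the 0.03 of all genes.

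Secreted and nuclear niche factors of bone marrow stroma, by contrast, lay toward MSC. Of 10 such genes 8 were listed and tested, all but Il7 and Adipoq, and 4 passed the adjusted threshold, each higher in MSC, against 0.383% of all genes in that direction. Cxcl12, the chemokine that holds blood stem cells in marrow and is made by Lepr-positive stroma, was 125, 129 and 203 in MSC and 13.0, 12.3 and 11.6 in TAC. All MSC values were far above all TAC values, and the log2 difference was -3.49 (SE 0.29, adjusted p 0.00876). Grem1, a secreted inhibitor of bone morphogenetic proteins, differed by -3.76 (SE 0.48, adjusted p 0.0389), with no read in TAC replicate 3. Angpt1, a vessel growth factor, differed by -2.94 (SE 0.40, adjusted p 0.0408), and Ebf1, a transcription factor of marrow stroma, by -3.09 (SE 0.45, adjusted p 0.0468). The other 4 listed genes lay between -2.59 and -0.13, and the median of the 8 was -2.76. The 4 calls fell to 0 without MSC replicate 1 or 2 or TAC replicate 1 or 2. In each of those fits 6 of the 8 had an unadjusted p-value under 0.05, and the share of all genes is not given here. Without TAC replicate 3 the count of calls was 1. With replicates 1 and 2 alone it was 6, in a fit that called 44.2% of all genes. The differences themselves stayed between -3.62 and -3.27 for Cxcl12, -3.83 and -3.63 for Grem1, -3.03 and -2.85 for Angpt1, and -3.31 and -2.85 for Ebf1 whichever sample was left out. Their size depended on the pseudocount. In the same order they were -3.59, -5.90, -3.39 and -3.62 with 0.1, where only Cxcl12 passed. With a pseudocount of 10 they were -2.83, -1.30, -1.41 and -1.48, and all 4 passed.

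Binding partners, ligands and enzymes that work with the markers were examined as a list of 29 genes, of which 27 were listed and 23 tested. The list held integrins and other receptors, the hyaluronan synthases and hyaluronidases, the leptin pathway and the adenosine pathway, and leptin itself (Lep) was not listed. In limma 0 passed the adjusted threshold and 8 had an unadjusted p-value under 0.05, 7 toward MSC (6.43% of all genes) and 1 toward TAC (5.42%). The 1 toward TAC was Itga4, the integrin subunit through which cells bind VCAM1. Itga4 was 44.7, 48.9 and 13.8 in MSC and 200, 209 and 120 in TAC, the reverse of Vcam1. Its groups did not overlap, and TAC exceeded MSC by 2.41 on the log2 scale (SE 0.51, adjusted p 0.129, 0.0442 with the replicate block and 0.498 with replicates 1 and 2 averaged). Entpd1, which encodes CD39 and makes the AMP that NT5E uses, was 21.6, 23.2 and 13.3 in MSC and 5.10, 5.68 and 5.91 in TAC, or -1.60 on the log2 scale (SE 0.39, adjusted p 0.170). Without MSC replicate 3 it passed at 0.0409, and over all fits that left out 1 sample its adjusted p went up to 0.634. Cd6, whose protein binds ALCAM, was 4.08, 4.64 and 9.07 in MSC and 0.131, 0.408 and 1.31 in TAC, or -2.10 on the log2 scale (SE 0.57, adjusted p 0.195).

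**Figure D4:**
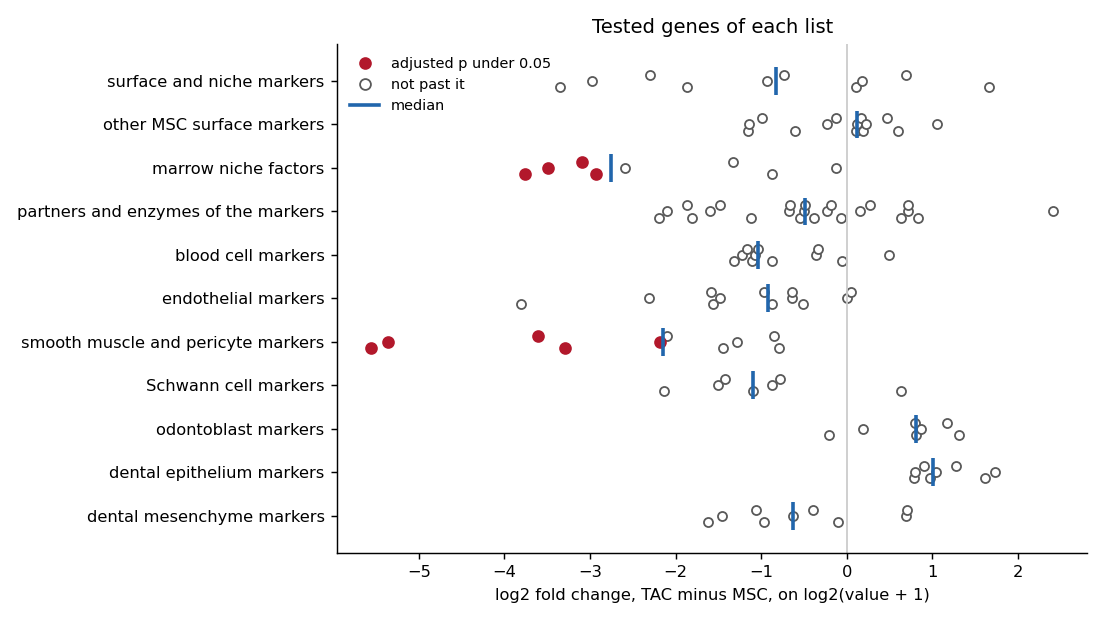
Each point is a tested gene, placed by its log2 fold change (x axis, TAC minus MSC, on log2(value + 1)) within its list, with filled points for an adjusted p-value under 0.05 and a bar at the median of the list. Filled points occur for the marrow niche factors (4 of 8 genes) and the smooth muscle and pericyte markers (5 of 10 genes), whose medians were -2.76 and -2.14.

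Markers of other cell types were followed as lists, and only the smooth muscle and pericyte list held genes past the adjusted threshold. Of 12 smooth muscle and pericyte genes, 10 were tested, all 10 had groups that did not overlap, each toward MSC (12.2% of all genes), and 5 passed toward MSC in limma (0.383% of all genes). These were Tagln, at -3.60 (adjusted p 0.0337), Notch3, at -2.18 (0.0389), Myh11, at -5.56 (0.0391), Acta2, at -5.36 (0.0455), and Rgs5, at -3.29 (0.0491). Of these calls 0 were left without MSC replicate 1 or 2 or TAC replicate 1 or 2, and 1 without TAC replicate 3. In each of the fits with 0 calls, 8 of the 10 genes had an unadjusted p-value under 0.05, and the share of all genes is not given here. Replicates 1 and 2 alone gave 10 calls, in a fit that called 44.2% of all genes. Over the fits that left out 1 sample the differences of Tagln stayed between -3.78 and -3.28, and those of Notch3 between -2.32 and -2.01. Those of Rgs5 ran from -3.58 to -2.72, while Myh11 and Acta2 came to -4.68 and -4.61 without TAC replicate 3, and Acta2 to -4.78 without MSC replicate 3. With the replicate block Acta2 did not pass (adjusted p 0.0701). The summed level of the 12 genes was 1046 to 1718 in MSC and 192 to 242 in TAC. Mcam, and in part Lepr and Nes, are expressed in such cells, and their part in the values of these markers was not tested.

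Most endothelial genes lay toward MSC, with 10 negative and 2 positive log2 fold changes. All 12 were tested, 8 had groups that did not overlap, each toward MSC (12.2% of all genes), and 6 had an unadjusted p-value under 0.05, each toward MSC (6.43% of all genes), with 0 past the adjusted threshold. Vwf, Cldn5 and Pecam1, genes of vessel lining, differed by -3.80, -2.31 and -1.59 (adjusted p-values 0.108, 0.132 and 0.139). Without MSC replicate 3 Vwf and Pecam1 passed, at -4.51 and -1.27 (adjusted p-values 0.0393 and 0.0472), and without TAC replicate 3 Vwf was -3.24. Over all fits that left out 1 sample the adjusted p-values of Vwf and Pecam1 went up to 0.397 and 0.545. With the replicate block Vwf and Cldn5 passed, at 0.0323 and 0.0491, but not with replicates 1 and 2 averaged (0.498 and 1.00). The summed level was 336 to 385 in MSC and 150 to 151 in TAC. Kdr, the receptor for VEGF, had a log2 difference of -0.93 in replicate 3 and of 0.47 in the other libraries. Cd34, Mcam and Ly6a are expressed by endothelium, and its part in their values was not tested.

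Blood cell genes, whose absence is part of the usual definition of a mesenchymal stem cell, were present in both regions. Of 13 genes 11 were tested, 0 passed the adjusted threshold and 1 had an unadjusted p-value under 0.05, toward MSC (6.43% of all genes). Ptprc, the pan-leukocyte marker CD45, was 10.4, 13.3 and 13.4 in MSC and 4.23, 5.49 and 5.09 in TAC (log2 fold change -1.17, adjusted p 0.310). Csf1r and Itgam, both of macrophages, differed by -0.88 and -1.04 (adjusted p-values 0.450 and 0.494). With 1 sample left out Csf1r ran from -1.11 to -0.55 and Itgam from -1.20 to -0.82. The summed level of the list was 105 to 384 in MSC and 55.0 to 173 in TAC, and in each group replicate 3 was the highest. In MSC replicate 3 the largest parts of that sum were H2-Aa (90.5), H2-Ab1 (83.9) and Lyz2 (76.4). Not every gene of the list rose there, as C1qa and Cd79a were the lowest of the MSC libraries and Adgre1 had no read. Among the markers, replicate 3 was the highest in both groups for Thy1, Mcam, Cd44 and Cd34, and in MSC for Ly6a and Vcam1. A link between these markers and blood cells was not tested.

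Of 9 Schwann cell genes 7 were tested, and 2 had an unadjusted p-value under 0.05, both toward MSC (6.43% of all genes), with 0 past the adjusted threshold. Sox10, the transcription factor of the lineage, differed by -2.14 (adjusted p 0.156) and Cdh19 by -1.42 (0.336). The summed level was 38.8 to 49.3 in MSC and 19.5 to 24.6 in TAC, and Mag, S100b and Prx had no read in MSC replicate 3. Nes is expressed in glia, and their part in its level was not tested.

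For odontoblast, dental epithelium and dental mesenchyme genes, 0 passed the adjusted threshold. Of 8 odontoblast genes 7 were tested, and 0 had an unadjusted p-value under 0.05. Phex, Bglap and Ibsp differed by 1.17, 0.80 and 1.31 (adjusted p-values 0.657, 0.720 and 0.748). The library sets went in opposite directions for 5 of the 7, Phex and Ibsp among them, at -0.15 and -0.43 in replicates 1 and 2 against 3.83 and 4.7996 in replicate 3. The summed level of that list was 886 in MSC replicate 3 and 4546 to 5261 in the other 5 libraries. Of 8 epithelial genes, all tested, 4 had groups that did not overlap, each toward TAC (12.3% of all genes). An unadjusted p-value under 0.05 was reached by 1 of them, toward TAC (5.42% of all genes). Epcam and Cdh1 differed by 1.62 and 1.73 (adjusted p-values 0.346 and 0.438), and without MSC replicate 3 by 1.27 and 0.97. The sum of all 8 epithelial genes was 300 in MSC replicate 3 and 2149 to 3658 elsewhere. Of the 9 dental mesenchyme factors 3 had an unadjusted p-value under 0.05, all toward MSC (6.43% of all genes). These were Lhx8, at -1.63 (adjusted p 0.110), Pax9, at -1.45 (0.170, 0.0442 with the replicate block and 1.00 with replicates 1 and 2 averaged), and Dlx1, at -0.97 (0.347). The sum of all 9 factors was 678 to 792 in MSC and 450 to 566 in TAC.

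The strand of the reads was not stated in the sources used here, so a gene that overlaps another can hold reads of both. Vcam1 overlaps Gm43109, Cd34 overlaps Gm16897 and Mcam overlaps Gm10687, each an antisense gene, and Cd44 overlaps the small nuclear RNA gene Gm23731. The other 6 markers overlap no annotated gene in GENCODE release M21.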

How the data were processed

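RNA from laser-captured incisor regions was sequenced as single-end reads in 3 MSC and 3 TAC samples. Per the labels and methods, the authors trimmed reads and aligned them to mm10 with TopHat2 2.0.8 (CASAVA 1.8.2 and Partek are also named). The deposited values were used as a signal, not as the RPKM that the methods name: the lowest value of a library is shared by genes of any length, so gene length was not divided out. The third quartile was nearly equal in all libraries. Reads were estimated by dividing each value by that library's minimum and subtracting 1. Of values up to 50 reads, 75.6% to 94.6% came out whole within 0.02, so no count model was used. Chi-square per degree of freedom was 10.3 between MSC replicates 1 and 2 and 8.33 between TAC replicates 1 and 2, above sampling noise. Pairs with replicate 3 gave 1413 to 1777. Each library was counted once, though spread above sampling noise does not tell whether replicates 1 and 2 are separate animals.

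The planned test assumed a normalized unit and was kept. limma 3.58.1 (R 4.3.3) with a variance trend was fitted to log2(value + 1) of 15391 genes (mean over all samples 1 or more), which understates the change of low genes, and p-values were two-sided and adjusted by Benjamini-Hochberg over all of them. Fits were tested on simulated data. Alternatives were a pseudocount of 0.1 or 10, other filters and scalings, other variance models, the replicate number or library set as a term, replicates 1 and 2 alone or averaged, and each sample left out. Those for genes other than the 10 markers and for the difference between library sets were chosen after seeing the data. For the pairing, deviations of same-numbered samples from their group means correlated at 0.477, 0.465 and 0.517 across genes. MSC replicate 1 with TAC replicate 2 gave 0.462. MSC replicate 2 with TAC replicate 1 gave 0.480, above the 0.465 of the replicates numbered 2. The shared part is thus mainly replicate 3 against the others. The pairing rests on the label numbers together with the sample pairs mentioned in the methods. The groups differ in genotype, so a pair cannot be 1 animal. The markers, the lists and the rule for named genes (every marker, genes past the threshold or otherwise the 3 lowest p-values per list, and the 3 nearest profiles) were chosen with earlier results of these data known. Dspp, Kdr and the list genes named for having no read were chosen after their values were seen. Some list genes are not reported here. Exon lengths and coordinates (1-based) are from GENCODE M21 and promoters from RefSeq.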

Additional observations from a re-analysis of the deposited data

Results flagged for a closer look

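The difference between TAC and MSC itself differed between library sets (replicate 3 minus replicates 1 and 2, limma interaction term) for 6 of the 10 markers, where 57.2% of all genes tested did so. On the log2 scale it was -4.48 for Ly6a (adjusted p 8.26e-05), -1.69 for Cd34 (0.000832), 2.76 for Nt5e (0.00295), -1.82 for Vcam1 (0.00304), 1.26 for Lepr (0.0146) and -0.73 for Cd44 (0.0336). For Ly6a, Cd34, Vcam1 and Lepr both sets had the same direction, and for Nt5e and Cd44 they had opposite ones. In replicate 3 each group is 1 library.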

How the results depend on the processing

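The count of all genes called, 65, became 38 with a pseudocount of 0.1, 29 without a variance trend, 229 with the replicate block, 1814 with library set as a term, 6796 with replicates 1 and 2 only and 10 with these averaged. Leaving out 1 sample gave 0 to 292. The count of surface and niche markers called, 0, became 2 with the replicate block, 4 with library set as a term (Thy1, Vcam1, Lepr and Mcam) and 6 with replicates 1 and 2 only, and 0 to 3 when 1 sample was left out. The 3 were Vcam1, Ly6a and Lepr without MSC replicate 3, a fit that called 292 of all 15391 genes. Marrow niche factors called, 4, became 1 with a pseudocount of 0.1, with no filter, with a mean of at least 10 or with replicates 1 and 2 averaged, and 0 to 4 with 1 sample left out. Smooth muscle and pericyte markers called, 5, became 2 with a pseudocount of 0.1, 1 without the trend, 8 with library set as a term, 10 with replicates 1 and 2 only and 2 with these averaged, and 0 to 4 with 1 sample left out. Of 178 values of the 10 markers under 18 alternatives, 155 kept their direction and side of the threshold, 15 passed it newly and 8 changed direction. Nt5e was -0.23 with replicates 1 and 2 only and -0.066 without MSC replicate 3, Cd44 was -0.014 with replicates 1 and 2 averaged and -0.15 without MSC replicate 2, Cd34 was 0.19 without MSC replicate 3, and Nes was -0.27, -0.0038 and -0.012 without MSC replicate 3, TAC replicate 1 and TAC replicate 2. Of the other named genes, Phex was -0.15 and Ibsp -0.43 with replicates 1 and 2 only, Ibsp was -0.36 without MSC replicate 3, and Bglap was -0.064 without TAC replicate 3. Over the fits that left out 1 sample, the values ran from -0.066 to 1.24 for Nt5e, -0.15 to 0.45 for Cd44, -1.20 to 0.19 for Cd34, -0.27 to 0.55 for Nes, -1.55 to -0.46 for Alcam, 0.11 to 1.73 for Phex, -0.064 to 1.24 for Bglap and -0.36 to 2.18 for Ibsp. The cause was not tested. Vcam1, Lepr, Mcam, Ly6a, Alcam and Thy1 kept their direction in all alternatives that could be run. Nt5e and Alcam have no value with a mean of at least 10. The replicate block also made Itga4, Vwf, Cldn5 and Pax9 pass, none of which passed with replicates 1 and 2 averaged (adjusted p 0.498 to 1.00), and Acta2 fail, and changed no other call among the named genes. Low reads limit Ly6a and Grem1 in TAC, Alcam in all libraries and Nt5e in all but TAC replicate 3.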

Other observations

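MSC replicate 3, the library with the highest Ly6a and Cd34, was also the highest for H2-Aa and H2-Ab1, which were chosen after their values were seen. H2-Aa, a chain of the class II molecule, held 5.94 and 5.80 in the other MSC libraries against 90.5 there, and 3.44, 3.33 and 13.6 in TAC. H2-Ab1, its partner chain, was 12.1, 14.6 and 83.9 in MSC and 5.82, 6.34 and 26.0 in TAC. The endothelial genes Pecam1 and Vwf parted there, with Pecam1 at 82.3 in MSC replicate 3 against 39.6 and 43.7, and Vwf at 20.6 against 91.1 and 96.2.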
